A study of Mus musculus with 24 samples.

Results

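Nuclei of dorsal excitatory (DE) and dorsal inhibitory (DI) neurons were compared within each of 9 control mice, across all genes. The members were chosen by the population name that the authors' deposited annotation gives each nucleus. All populations named DE or DI plus a number were pooled, which gave 633 DE nuclei in 16 populations and 439 DI nuclei in 9 populations. These 1072 nuclei are part of 6750 barcodes from control mice and 18000 barcodes in the whole series. They make up 51.5% of the 2082 control neurons that carry a population name, and 1036 further control neurons carry none. The reading of D, E and I as dorsal, excitatory and inhibitory is not spelled out in the labels. Excitatory and inhibitory were checked against transmitter genes below. The reading of D as dorsal was not tested, because no neurons from other parts of the cord were compared.

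The study profiled nuclei of the lumbar spinal cord by Drop-seq, which captures the RNA of single nuclei in droplets and tags each molecule with a unique molecular identifier (UMI). All animals were ICR/CD-1 mice, an outbred stock, of either sex and 8 to 11 weeks of age, with no altered allele given, and the dorsal root ganglia were removed from the cord. The control mice are given no stimulus in the labels. The series also holds 10 formalin mice, injected in both hindpaws, and 5 rotarod mice, placed on an accelerating rod, in which the same comparison was repeated. Spinal cord is the tissue in the protocol and title, although the sample labels say brain. Of the 9 control mice, 3 have titles ending in cx, a code that is not explained. For genes named by rule with enough counts to be tested, calls were checked without these mice and in them alone. Where the call of such a gene described here ended, its value there is given beside it. Genes too low for that test, and genes named after their values were seen, were not checked in this way.

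The dorsal horn is where sensory fibres from skin, muscle and viscera end, and most of its neurons are local interneurons. Excitatory interneurons release glutamate, loaded into vesicles by the transporter VGLUT2, and many also make neuropeptides. Inhibitory interneurons release GABA, glycine or both, and they hold sensory input in check. The classes are set apart in the embryo by transcription factors such as Lmx1b in excitatory and Pax2 in inhibitory neurons.

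Per mouse, 22 to 111 DE nuclei and 16 to 77 DI nuclei were summed, which held 45943 to 346698 UMIs and 57463 to 247966 UMIs. Levels are given as CPM, the UMIs of a gene per 1000000 UMIs of the same nuclei, as the mean ± SD over 9 mice. The median UMI count per nucleus averaged 2117 ± 472 in DE and 2491 ± 501 in DI nuclei. It was lower in DE in 7 of 9 mice, with a mean log2 ratio of -0.24 (SD 0.22, exact two-sided sign-flip permutation p = 0.0234, where 0.00391 is the smallest possible). No barcode sequence was shared between libraries among these nuclei. Summed markers of 7 pan-neuronal genes stood at 39252 ± 2391 CPM in DE and 39745 ± 3591 CPM in DI. The 11 oligodendrocyte markers summed to 2012 ± 1181 CPM in DE (718 to 4105) and 1718 ± 1131 CPM in DI (487 to 3631), with DE higher in 8 of 9 mice and none of the 11 at 0 in either. In nuclei that the annotation calls oligodendrocytes they summed to 23903 CPM. The 7 oligodendrocyte precursor markers summed to 41.7 ± 21.0 CPM in DE and 19.7 ± 6.82 CPM in DI, and the 9 astrocyte markers to 214 ± 84.5 CPM in DE and 171 ± 57.8 CPM in DI, both higher in DE in 7 of 9 mice. The 9 microglia markers summed to 79.5 ± 25.1 CPM in DE and 50.1 ± 20.3 CPM in DI, higher in DE in 7 of 9 mice, with C1qb at 0 in both families. The 8 endothelial markers summed to 33.6 ± 11.3 CPM in DE and 47.8 ± 30.1 CPM in DI, higher in DE in 4 of 9 mice, with Cldn5 at 0 in both. Meningeal markers summed to 26.4 CPM in DE and 25.8 CPM in DI, Schwann cell markers to 112 and 101 CPM, dorsal root ganglion markers to 10.8 and 9.77 CPM, and motor and cholinergic neuron markers to 40.8 and 40.7 CPM. The part of depth and of these other cell types in the results was not tested.

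Of 2904 genes with enough counts to be tested, 469 differed between DE and DI nuclei at an adjusted p under 0.05 (16.2% of the genes tested; edgeR, mouse as block). DE nuclei were higher for 252 genes (8.68%) and lower for 217 (7.47%). The difference was at least 2-fold for 151 genes, 89 of them higher and 62 lower in DE. For 142 of the higher and 104 of the lower genes all 9 mice lay on the same side. The median log2 fold change over all tested genes was -0.01, and the median size 0.19. Among the 6 mice without the cx suffix 313 genes were called, and among the 3 with it 391. The populations were built by the authors from these same counts, so genes that define populations are not independent findings, and the p-values describe how regularly a difference recurred over mice. A gene had to reach about 59.3 CPM in 9 of the 18 sums to be tested, so a gene low in 1 family entered through the other. Genes below that level were read from a fit without the filter, over 22403 genes, of which 638 were called (2.85%), 365 higher (1.63%) and 273 lower (1.22%) in DE.

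**Figure D1:**
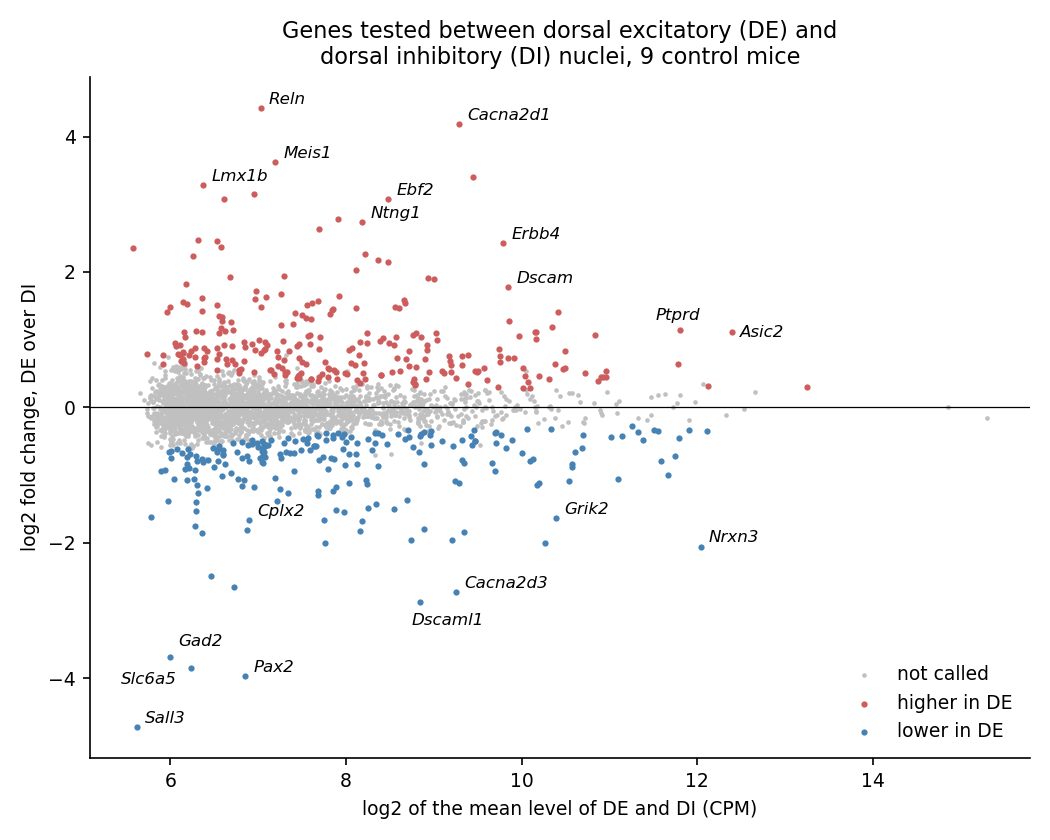
Each point is a gene tested in 9 control mice, with the log2 of its mean level in CPM on the horizontal axis and the log2 fold change of DE over DI on the vertical axis. The 252 genes higher in DE reach 4.42 (Reln) and the 217 lower in DE reach -4.72 (Sall3), whereas most genes lie near 0.

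Slc17a6 and the called GABA and glycine genes matched the names of the families, while other genes that supply glutamate gave no call. Slc17a6, which encodes VGLUT2, had a level of 114 ± 45.4 CPM in DE nuclei (lowest 43.5, median 124, highest 188) and 12.8 ± 14.8 CPM in DI nuclei (lowest 0, median 4.25, highest 34.8). The groups did not overlap. It did not pass the filter, and without the filter its log2 fold change was 3.28 ± 0.32 (SE, adjusted p = 2.30e-22). Gad2, a GABA-synthesising enzyme, stood at 10.0 ± 8.48 CPM in DE (lowest 0, median 9.60, highest 21.8) and 118 ± 34.2 CPM in DI (lowest 73.2, median 124, highest 169). Its log2 fold change was -3.68 ± 0.32 (adjusted p = 2.73e-15), and every DI sum exceeded every DE sum. It was -4.55 without the cx mice and -2.76 in them alone. Slc6a5, the glycine transporter of glycinergic terminals, stood at 9.22 ± 7.24 CPM in DE and 142 ± 50.3 CPM in DI (log2 fold change -3.85 ± 0.29, adjusted p = 1.68e-17). In the 3 cx mice alone Slc6a5 was at -3.16. The 4 tested genes of the GABA and glycine identity list were all lower in DE, against 7.47% of all tested genes. They include the GABA-degrading enzyme Abat (152 ± 47.9 CPM in DE and 276 ± 80.7 CPM in DI, -0.74, and -0.48 with no call in the cx mice alone). Gad1, the other GABA-synthesising enzyme, was called only without the filter (8.42 ± 11.7 CPM in DE and 63.8 ± 36.4 CPM in DI, -3.25). The vesicular GABA and glycine transporter gene Slc32a1 was thinly captured, at 7.61 ± 10.1 CPM in DE and 23.9 ± 18.0 CPM in DI, and missed the threshold without the filter (adjusted p = 0.0538). Genes that supply transmitter glutamate gave no call among 4 tested, for example the glutamine transporter gene Slc38a1 at 117 CPM in DE and 112 CPM in DI. None of the 4 reached an unadjusted p under 0.05 in edgeR or a call in DESeq2.

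At the level of single nuclei, 147 of 633 DE nuclei held a Slc17a6 UMI (23.2%, exact 95% interval 20.0 to 26.7) against 13 of 439 DI nuclei (2.96%, 1.59 to 5.01). Among 837 oligodendrocyte nuclei, which should lack it, the share was 3.23%, close to the DI share. The source of the Slc17a6 UMIs in DI nuclei was not tested. Any of Gad1, Gad2, Slc32a1 and Slc6a5 was seen in 50 DE nuclei (7.90%, 5.92 to 10.3), 246 DI nuclei (56.0%, 51.3 to 60.7) and 4.42% of oligodendrocyte nuclei. Median depths were 2275 UMIs in DE, 2621 in DI and 1264 in oligodendrocyte nuclei. With each nucleus thinned to 500 UMIs (90 oligodendrocyte nuclei left out), the Slc17a6 shares were 7.42%, 0.683% and 1.20%, and the shares of the inhibitory genes 1.11%, 16.6% and 2.41%. The intervals cover counting error only.

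**Figure D2:**
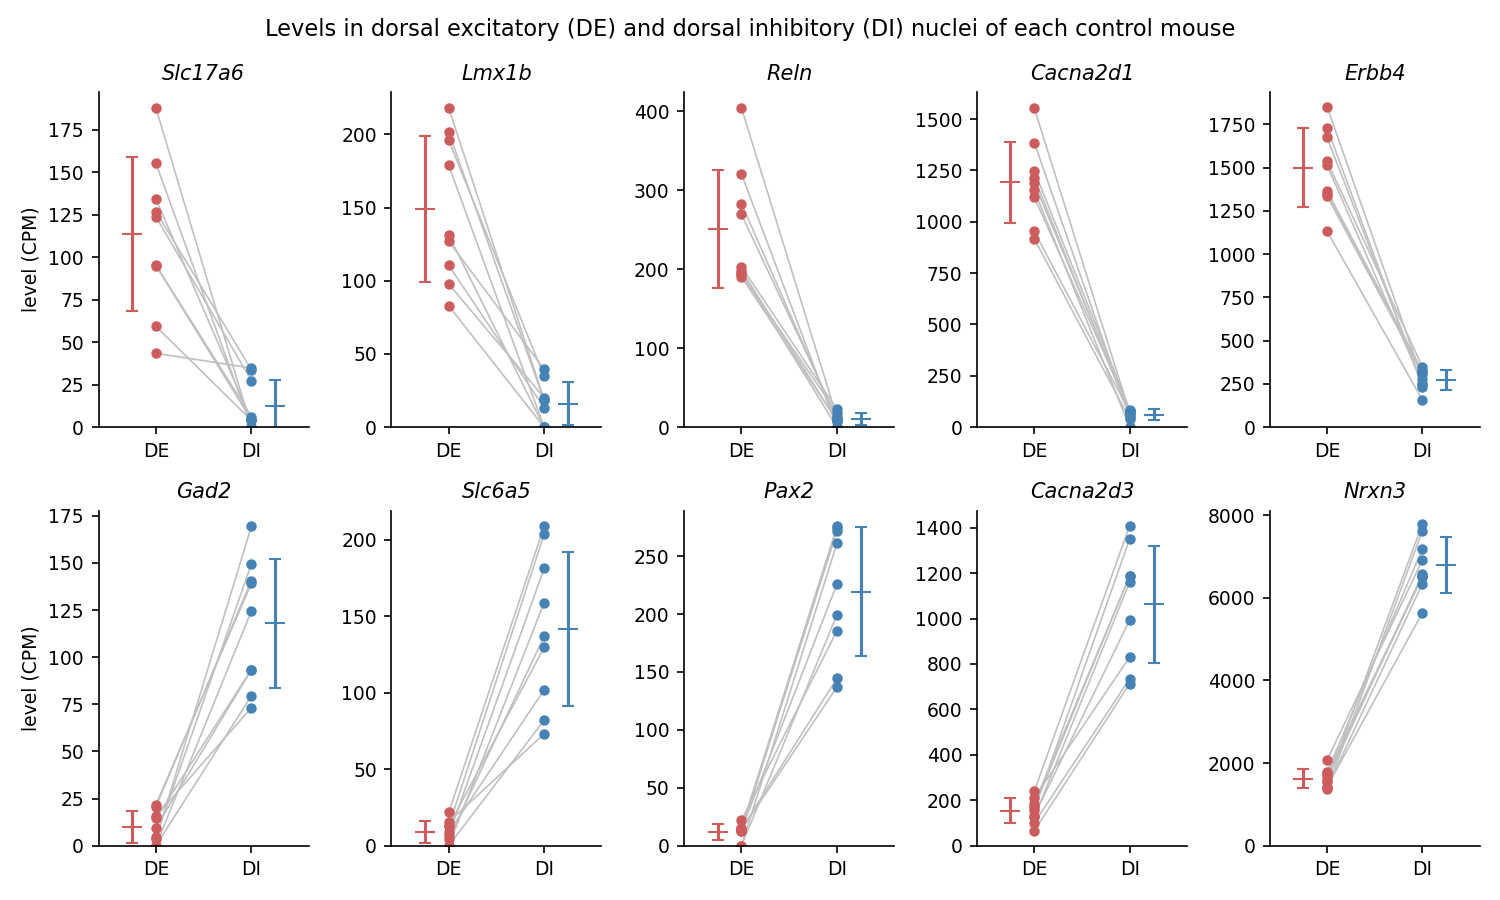
Levels in CPM of 10 genes in DE (left) and DI (right) nuclei of the 9 control mice, with a line per mouse and the mean and SD at the sides (cut off at 0). The upper row holds genes higher in DE, such as Cacna2d1 at 917 to 1554 in DE and 0 to 84.9 in DI, and the lower row genes lower in DE, such as Pax2 at 0 to 22.1 in DE and 137 to 276 in DI.

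Gene starts of both identities are given because Slc17a6 and Gad2 carry the check of the families. The sequences are RefSeq promoter windows on GRCm38.p6 (250 bases before to 50 after a gene start). For Slc17a6 it is the second of 2 listed starts, chr7:51624387-51624686 on the plus strand, and for Gad2 chr2:22622077-22622376 on the plus strand. Capitals mark TAATTA, the core letters bound by many homeodomain factors, the protein class of Lmx1b, and TGACGTCA, the cyclic-AMP response element. Each motif reads the same on both strands, and they cannot overlap each other in full.
Slc17a6: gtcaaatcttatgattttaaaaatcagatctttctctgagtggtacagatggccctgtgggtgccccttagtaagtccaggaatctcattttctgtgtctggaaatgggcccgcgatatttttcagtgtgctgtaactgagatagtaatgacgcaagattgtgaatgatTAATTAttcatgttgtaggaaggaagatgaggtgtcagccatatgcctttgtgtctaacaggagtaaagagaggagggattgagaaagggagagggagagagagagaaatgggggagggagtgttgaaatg
Gad2: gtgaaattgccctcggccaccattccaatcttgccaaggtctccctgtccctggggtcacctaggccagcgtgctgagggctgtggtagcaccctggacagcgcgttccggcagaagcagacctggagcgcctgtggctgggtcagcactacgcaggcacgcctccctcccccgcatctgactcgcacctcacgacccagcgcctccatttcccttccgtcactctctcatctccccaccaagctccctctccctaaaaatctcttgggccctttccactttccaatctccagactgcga
The Slc17a6 window shown holds TAATTA once, from base 170, and the Gad2 window holds neither motif. The window of the first Slc17a6 start is not shown, so the comparison with Gad2 covers the second start alone. TAATTA occurs in the windows of 6.12% of 27025 genes, 5.33% of 169 genes higher in DE, 3.18% of 157 genes lower in DE and 3.33% of 2221 tested genes. Slc17a6 did not pass the filter, so it is not among the tested genes or the 169 higher in DE. A match is a description of letters and not of binding.

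Most of the called transcription factors of the dorsal cord lay on the side of their list, with exceptions on each list. Lmx1b, the homeodomain factor needed for dorsal excitatory neurons, lies at chr2:33560965-33640511 on the minus strand. It stood at 149 ± 49.9 CPM in DE nuclei (lowest 82.9, median 131, highest 218) and 16.1 ± 14.6 CPM in DI nuclei (lowest 0, median 18.3, highest 39.6). Its log2 fold change was 3.28 ± 0.32 (adjusted p = 1.01e-10), with 2.54 without the cx mice, 5.38 in them alone and 4.02 without DI-3. Ebf2, of the early B-cell factor family, stood at 639 ± 165 CPM in DE and 73.6 ± 65.6 CPM in DI (3.07 ± 0.28). Leaving out population DI-6 put Ebf2 at 4.40, since 306 CPM in DI-6 was the highest DI level. Sox5 followed at 501 ± 199 CPM in DE and 94.0 ± 27.7 CPM in DI (2.27 ± 0.15, and 1.62 without DE-11), and Ebf1 at 2456 ± 265 CPM in DE and 1199 ± 283 CPM in DI (1.06 ± 0.09). Of 30 genes on the excitatory list 11 were tested, with 7 called higher (63.6%) and 2 lower (18.2%) in DE, against 8.68% and 7.47% of all tested genes, and a median log2 fold change of 0.54. The remaining higher genes include the nuclear receptor gene Rora (0.54 ± 0.11), which stood at 1.40 without DI-8. The 2 lower genes were Bcl11a (138 ± 30.8 CPM in DE and 221 ± 43.8 CPM in DI, -0.64 ± 0.15), a zinc-finger factor, and Nfib (104 ± 44.0 CPM in DE and 161 ± 77.3 CPM in DI, -0.59 ± 0.17), a nuclear factor I gene. Bcl11a was not called without the cx mice (-0.57), and Nfib neither without them (-0.61) nor in them alone (-0.59). Nfib was not called without replicate 1 (-0.48) or DI-6 (-0.32), and stood at 0.0073 with no call without DI-3. It is also on the list of ventral interneuron markers, which summed to 311 ± 86.2 CPM in DE and 392 ± 81.3 CPM in DI, with DE higher in 1 of 9 mice and with Evx1, Evx2, En1 and Gata3 at 0 in both families.

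On the inhibitory list 28 of 29 genes are in the matrix, 5 were tested, and 3 were lower in DE with none higher, also by DESeq2 and at an unadjusted p under 0.05. The lower share was 60.0%, against 7.47% of all tested genes, and 8.68% of all tested genes were higher. Pax2, the paired-box factor of dorsal inhibitory neurons at chr19:44756045-44837871 on the plus strand, stood at 11.7 ± 7.20 CPM in DE (lowest 0, median 13.6, highest 22.1) and 219 ± 55.5 CPM in DI (lowest 137, median 226, highest 276). The groups were far apart, at a log2 fold change of -3.97 ± 0.25 (adjusted p = 2.17e-21). Sall3, a spalt-like zinc-finger gene, had the most negative fold change of the tested genes. It had 5 UMIs in all DE nuclei and 129 in all DI nuclei, or 1.81 ± 4.28 CPM in DE and 96.7 ± 34.5 CPM in DI (-4.72 ± 0.40, adjusted p = 1.20e-15). Sall3 passed the filter in the 3 cx mice at -3.82 and did not pass it in the other 6. Rorb, a nuclear receptor of inhibitory interneurons in the deeper dorsal horn, stood at 115 ± 55.8 CPM in DE and 457 ± 254 CPM in DI (-1.83 ± 0.23, with -2.61 without DE-8 and -1.23 without DI-9).

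Factors too low for the filter were called in the fit over 22403 genes. They were listed after their values were seen, as members of the fixed lists that passed the threshold there. The paired-box gene Pax8 had 6 DE and 134 DI UMIs, or 2.70 ± 3.92 CPM in DE and 86.9 ± 42.5 CPM in DI (-4.55 ± 0.41, adjusted p = 5.30e-26). The LIM-homeodomain genes Lhx1 and Lhx5, which act with Pax2 in inhibitory neurons, had 2 and 4 DE UMIs and 47 and 51 DI UMIs. For Lhx1 the rate in DI was 29.7-fold that in DE (95% counting interval 7.78 to 253). Gbx1, a homeobox gene, stood at 10.5 ± 10.4 CPM in DE and 85.6 ± 20.7 CPM in DI. On the excitatory side Prrxl1, the homeodomain factor also called Drg11, stood at 49.9 ± 23.3 CPM in DE and 3.00 ± 4.46 CPM in DI (3.71 ± 0.53). Pou4f1, which encodes Brn3a, had 22 DE UMIs and 1 DI UMI, a 17.4-fold ratio of rates with an interval of 2.81 to 718. Tlx3, a selector of the glutamatergic fate, had 10 DE UMIs and 0 DI UMIs and was not called (adjusted p = 0.314). Several listed genes went against their list. Casz1 (100.5 ± 43.1 CPM in DE and 10.8 ± 10.7 CPM in DI) and the chromatin organiser gene Satb1 (102 ± 49.2 CPM in DE and 15.3 ± 8.26 CPM in DI) were on the inhibitory list and higher in DE. Nr2f2, or COUP-TFII, had 6 DE and 49 DI UMIs, and Skor1 5 DE and 24 DI UMIs, and both were on the excitatory list and lower in DE.

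The calcium channel α2δ genes split between the families. α2δ subunits carry voltage-gated calcium channels to the membrane, and α2δ-1 is the binding site of gabapentin. Cacna2d1 (α2δ-1, chr5:15934691-16374511, plus strand) stood at 1193 ± 197 CPM in DE nuclei (lowest 917, median 1188, highest 1554) and 59.5 ± 26.8 CPM in DI nuclei (lowest 0, median 70.3, highest 84.9). Its log2 fold change was 4.18 ± 0.15 (adjusted p = 3.07e-33). Cacna2d3 (α2δ-3, chr14:28904943-29721864, minus strand) went the other way, with 154 ± 54.7 CPM in DE (lowest 65.3, median 159, highest 240.2) and 1063 ± 258 CPM in DI (lowest 714, median 1161, highest 1408). Its log2 fold change was -2.73 ± 0.13 (adjusted p = 9.34e-28). For neither gene did the families overlap over the 9 mice. Cacna2d2 (α2δ-2) was lower in DE by a smaller amount (162 ± 75.4 CPM in DE and 223 ± 58.5 CPM in DI, -0.63 ± 0.16), and was not called without the cx mice (-0.51). The split held at the level of populations. Cacna2d1 was at 408 to 3022 CPM in the 16 DE populations and at 15.8 to 134 CPM in the 9 DI populations, so all DE populations lay above all DI populations. For Cacna2d3, 7 of the 9 DI populations lay above all DE populations, and DI-3 and DI-4, at 268 and 372 CPM, overlapped DE-4 at 441 CPM.

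Other sodium and calcium channel genes differed less. Of 25 tested, 4 were higher and 4 lower in DE (16% each, against 8.68% and 7.47% of all tested genes), with a median log2 fold change of 0.05. Asic2, an acid-sensing cation channel, stood at 7348 ± 880.2 CPM in DE and 3402 ± 513 CPM in DI (1.11 ± 0.08, adjusted p = 2.77e-17), with all DE sums above all DI sums. The L-type channel gene Cacna1d was higher in DE (0.53 ± 0.12), and the T-type channel gene Cacna1i (-1.17 ± 0.19) and the sodium channel modulator gene Fgf14 (-0.33 ± 0.08, and -0.25 with no call in the cx mice alone) were lower. The sodium channel gene Scn3a was near the threshold (0.39 ± 0.14, adjusted p = 0.0446), and its call was lost when any of 7 mice was left out, without the cx mice (0.43) and in them alone (0.35). The Scn3a call was also lost under DESeq2, without the filter and without several single populations of both families, such as DE-5 (0.29) and DI-8 (0.21). Among 30 tested potassium and HCN channel genes, 3 were higher (10.0%) and 8 lower (26.7%) in DE (median -0.17). Kcnb2, a delayed rectifier subunit, stood at 729 ± 174 CPM in DE and 1591 ± 280.3 CPM in DI (-1.15 ± 0.10, adjusted p = 1.34e-14). The M-current gene Kcnq3 (-0.60), the β subunit gene Kcnab1 (-0.75), the A-type auxiliary gene Dpp6 (-0.42) and the large-conductance channel gene Kcnma1 (-0.42) were also lower. Dpp6 stood at -0.06 and was not called without DI-8, and in the cx mice alone neither Dpp6 (-0.35) nor Kcnma1 (-0.39) was called. Higher in DE were the A-type channel gene Kcnd3 (0.72 ± 0.19) and the EAG-family genes Kcnh7 (0.72 ± 0.13) and Kcnh5 (0.48 ± 0.16). Kcnd3 was not called without the cx mice (0.48), and it stood at 1.49 without DI-3. Its call was also lost without any of DE-6, DE-11, DE-12, DI-4, DI-8 or DI-9. The Kcnh5 call was lost without replicate 2, 6 or 9 and in the cx mice alone (0.17). It was also lost without any of DE-1 (0.26), DE-2, DE-7, DE-10, DI-1, DI-3 or DI-7, under DESeq2 and without the filter.

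Ionotropic glutamate receptor genes were called in both directions, 6 higher (28.6%) and 9 lower (42.9%) in DE of 21 tested, against 8.68% and 7.47% of all tested genes (median log2 fold change -0.09). Kainate receptor genes were lower. Grik2 stood at 657 ± 179 CPM in DE (lowest 466, median 619, highest 955) and 2035 ± 268 CPM in DI (lowest 1539, median 1974, highest 2375), a log2 fold change of -1.63 ± 0.10 (adjusted p = 2.72e-21). Grik3 stood at 38.2 ± 26.3 CPM in DE and 126 ± 38.9 CPM in DI (-1.85 ± 0.25, and -2.72 without DE-14). Grik1 (-1.09) and Grik4 (-0.57) were lower as well, while Grik5 was not called (0.28), and these 3 are named outside the rule after their values were seen. The kainate auxiliary gene Neto1 was lower too (-0.83 ± 0.17), and was not called without the cx mice (-0.64) or without DI-7 (-0.46). AMPA receptor genes split by subunit. Gria2, whose subunit makes the receptor impermeable to calcium, stood at 1370.5 ± 292 CPM in DE and 987 ± 121 CPM in DI (0.46 ± 0.10, adjusted p = 0.000158). Gria1 (836 ± 92.4 CPM in DE and 1412 ± 197 CPM in DI, -0.76 ± 0.10) and Gria3 (473 ± 98.6 CPM in DE and 802 ± 160 CPM in DI, -0.78 ± 0.11) were lower. Higher in DE were the NMDA subunit genes Grin3a (612 ± 146 CPM in DE and 205 ± 71.1 CPM in DI, 1.54 ± 0.13) and Grin2b (0.43 ± 0.11, and 0.34 with no call without the cx mice), the delta receptor gene Grid1 (558 ± 114 CPM in DE and 196 ± 46.4 CPM in DI, 1.48 ± 0.13) and the AMPA auxiliary gene Shisa6 (1.68 ± 0.21, and 2.58 in the cx mice alone). Of 5 metabotropic receptor genes tested, 1 was higher and 2 were lower in DE, the lower ones being Grm3 (-1.43 ± 0.20) and Grm5 (-0.34 ± 0.09). Grm5 was called neither without the cx mice (-0.32) nor in them alone (-0.36), and its call was also lost without DI-1 (-0.24). Grm3 stood at -0.75 without DI-6, which had 1646 CPM.

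GABA and glycine receptor genes were called in 1 direction. Of 19 tested genes for receptors, their scaffold and chloride transport, 9 were higher (47.4%, against 8.68% of all tested genes) and 0 lower (against 7.47%) in DE at an adjusted p under 0.05 (edgeR), with a median log2 fold change of 0.22. At an unadjusted p under 0.05 the counts were the same, 9 and 0, and DESeq2 called 5 higher and 0 lower. Gabra5 stood at 126 ± 40.5 CPM in DE and 62.0 ± 30.0 CPM in DI (1.10 ± 0.22, adjusted p = 5.20e-05). Gabrg3 stood at 1201 ± 116 CPM in DE (lowest 1059, median 1185, highest 1415) and 721 ± 123 CPM in DI (lowest 517, median 784, highest 841), with no overlap between the families (0.72 ± 0.10, adjusted p = 2.87e-08). Gabrb2 (0.91 ± 0.23), Gabrb1 (0.68 ± 0.12) and the scaffold gene Gphn, which encodes gephyrin (0.46 ± 0.11), were also higher. The remaining 4 were the genes that DESeq2 did not call, among them Gabra2 (0.44), Gabra3 (0.47) and the glycine receptor gene Glra3 (0.60), named after their values were seen. Gabra5 (0.83) and Gphn (0.37) were not called in the 3 cx mice alone. Monoamine and acetylcholine receptor genes were mostly too low to test. Of 42 listed, 4 were tested and 2 were lower in DE, the muscarinic receptor gene Chrm3 (281 ± 100.4 CPM in DE and 1023 ± 499.7 CPM in DI, -1.84 ± 0.24) and the serotonin receptor gene Htr2c (211 ± 88.1 CPM in DE and 619 ± 176 CPM in DI, -1.37 ± 0.19). Htr2c was at -1.98 without DE-14, where it reached 978 CPM. Without the filter Adra1a, Adra1b, Drd2 and Htr1f were also lower in DE, and the nicotinic receptor gene Chrna7 was higher (69.0 ± 42.8 CPM in DE and 17.3 ± 13.0 CPM in DI). Of 2 endocannabinoid genes tested Mgll, which degrades 2-arachidonoylglycerol, was lower in DE (65.8 ± 16.5 CPM in DE and 160.4 ± 34.2 CPM in DI, -1.16 ± 0.18).

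**Figure D3:**
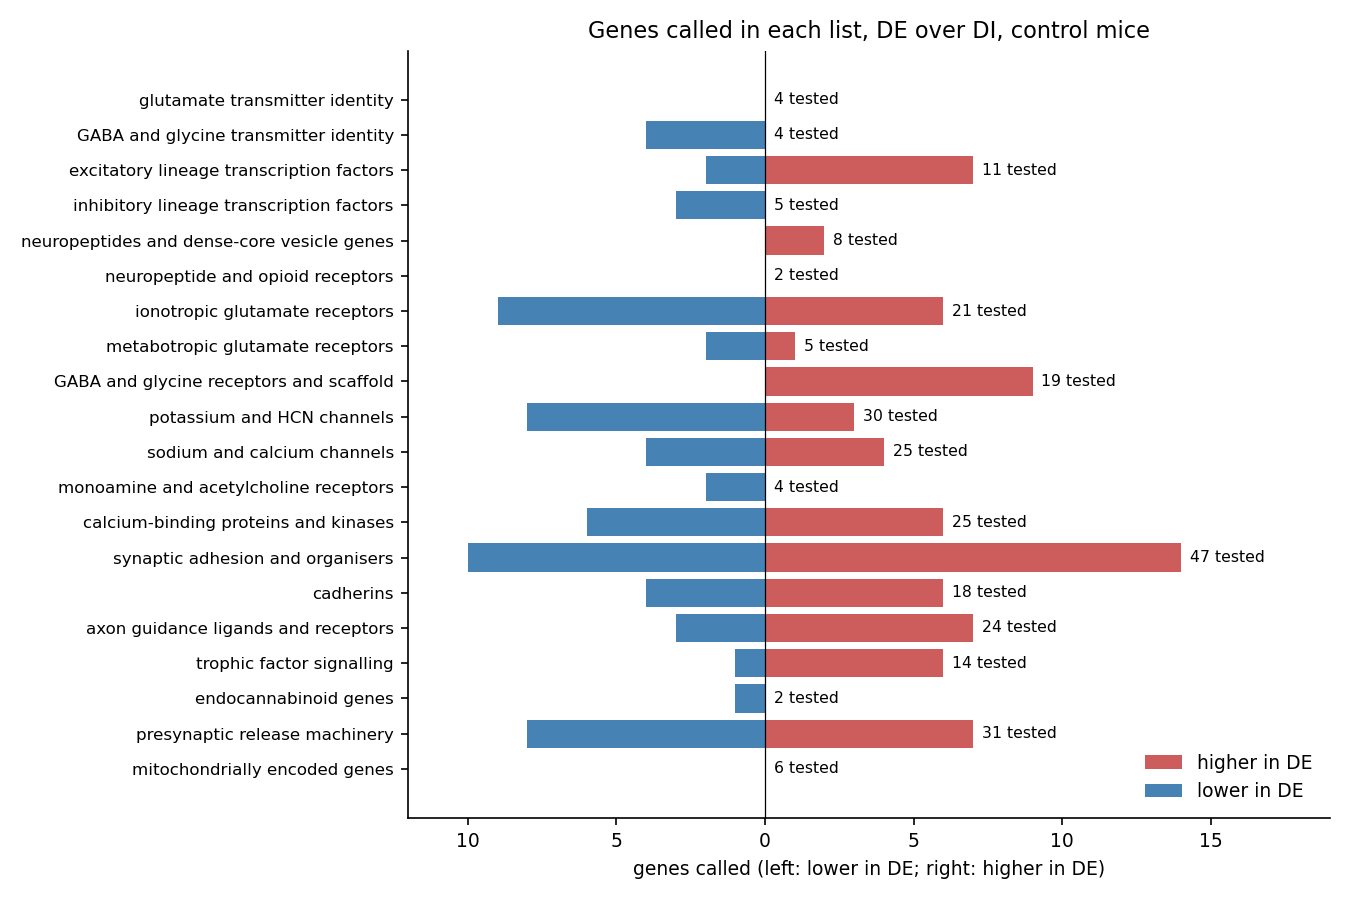
Number of genes called in each list, to the right for higher in DE and to the left for lower in DE, with the number tested at the bar. The 19 tested GABA and glycine receptor genes hold 9 higher and 0 lower, and the 21 ionotropic glutamate receptor genes hold 6 higher and 9 lower.

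Neuropeptide genes were sparse in nuclei, and those called were mostly higher in DE. Of 44 listed genes 41 are in the matrix and 8 were tested. Of these, 2 were called, both higher in DE (25%, against 8.68% of all tested genes). Fam19a1, a secreted TAFA protein, stood at 1292 ± 291 CPM in DE (lowest 990.4, median 1177, highest 1959) and 106 ± 63.1 CPM in DI (lowest 11.7, median 102, highest 242), a log2 fold change of 3.40 ± 0.22 (adjusted p = 3.42e-08). Its relative Fam19a2 was higher by less (0.58 ± 0.15, adjusted p = 0.00257) and was not called without the cx mice (0.35), without DE-11 or without DI-3 (0.38 each). Without the filter 37 peptide genes were tested, with 8 higher and 2 lower in DE, against 1.63% and 1.22% of 22403 genes. Of these, 6 higher and 2 lower genes were below the filter. Nts, which encodes neurotensin, had 104 DE and 2 DI UMIs, a 41.1-fold ratio of rates with a 95% counting interval of 11.1 to 344. Tac2, which encodes neurokinin B, had 100 DE and 2 DI UMIs (39.5-fold, 10.7 to 331), and Nmu, which encodes neuromedin U, 50 and 2 (19.8-fold, 5.19 to 168). Sst, which encodes somatostatin, stood at 65.4 ± 50.3 CPM in DE (lowest 22.7, median 51.8, highest 186) and 5.69 ± 4.96 CPM in DI (lowest 0, median 5.66, highest 12.1), without overlap (3.28 ± 0.42, adjusted p = 6.44e-13). Cck, for cholecystokinin, had 71 DE and 4 DI UMIs, and Tac1, which encodes substance P, 75 DE and 9 DI UMIs. Npy, for neuropeptide Y, was the reverse, with 3 DE and 54 DI UMIs, so that the rate in DI was 22.8-fold that in DE (7.38 to 114). Vgf was lower in DE as well, at 6.45 ± 7.41 CPM in DE and 22.0 ± 13.0 CPM in DI.

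Several peptides were concentrated in few populations. Nts reached 1140 CPM in DE-6, Tac2 607 CPM and Nmu 283 CPM in DE-5, Cck 250.1 CPM in DE-7 and Tac1 174 CPM in DE-11. Sst was more widely spread. It was highest in DE-5 (317 CPM) and DE-4 (187 CPM), with a median of 66.2 CPM over the DE populations, and 9 of 16 DE populations lay above all DI populations. Each of these genes was at 0 in at least some populations of both families. Npy reached 231 CPM in DI-4. Peptide and opioid receptor genes gave no call among 2 tested at an adjusted p under 0.05 (edgeR), and none at an unadjusted p under 0.05 or by DESeq2. The μ-opioid receptor gene was among the 2. Without the filter 5 of 51 were higher and 2 lower in DE, against 1.63% and 1.22% of 22403 genes. Grpr, the receptor for gastrin-releasing peptide in itch pathways, had 20 DE and 0 DI UMIs, which is at least 5.27-fold higher in DE against 3 counts over all DI nuclei. Tacr1, the substance P receptor, stood at 44.3 ± 26.8 CPM in DE and 2.74 ± 4.11 CPM in DI (3.01 ± 0.51), Rxfp1, a relaxin receptor, at 51.5 ± 42.1 CPM in DE and 4.99 ± 5.94 CPM in DI, and Npy1r, the Y1 receptor, at 31.3 ± 23.2 CPM in DE and 8.13 ± 11.5 CPM in DI. The orexin receptor gene Hcrtr2 was lower, at 20.3 ± 16.5 CPM in DE and 72.9 ± 24.7 CPM in DI (-2.08 ± 0.31), and reached 340.1 CPM in DI-3.

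Promoter windows of a tachykinin and of somatostatin are shown because both genes were higher in DE and each holds a motif named above. The windows are chr6:7554811-7555110 on the plus strand for Tac1 and chr16:23890795-23891094 on the minus strand for Sst, again from RefSeq on GRCm38.p6.
Tac1: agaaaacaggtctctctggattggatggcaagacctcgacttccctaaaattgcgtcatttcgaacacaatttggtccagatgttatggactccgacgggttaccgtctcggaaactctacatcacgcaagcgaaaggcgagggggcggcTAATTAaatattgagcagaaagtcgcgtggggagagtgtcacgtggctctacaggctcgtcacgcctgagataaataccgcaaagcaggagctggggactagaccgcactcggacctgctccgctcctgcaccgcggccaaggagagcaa
Sst: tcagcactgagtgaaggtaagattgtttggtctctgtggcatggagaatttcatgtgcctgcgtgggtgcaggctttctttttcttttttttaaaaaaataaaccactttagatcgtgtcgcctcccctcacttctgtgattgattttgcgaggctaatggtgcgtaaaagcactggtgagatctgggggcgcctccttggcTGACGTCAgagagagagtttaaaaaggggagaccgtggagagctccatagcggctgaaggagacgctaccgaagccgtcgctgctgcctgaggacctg
The Tac1 window holds TAATTA from base 151. The Sst window holds TGACGTCA from base 203, counted along the gene. TGACGTCA occurs in the windows of 2.03% of 27025 genes, in 3.74% of 2221 genes tested, in none of 169 genes higher in DE and in 4 of 157 genes lower in DE (2.55%). Tac1 and Sst were called only without the filter, so neither is among the 2221 tested genes or the 169 higher in DE. Both were picked for holding a motif, so they do not stand for those genes.

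Reln and Erbb4 had the largest positive fold changes of the tested genes on the trophic factor list. Reln encodes reelin, a secreted glycoprotein that positions dorsal horn neurons in development, and lies at chr5:21884454-22344702 on the minus strand. It stood at 251 ± 74.8 CPM in DE (lowest 190.4, median 203, highest 404) and 9.97 ± 7.47 CPM in DI (lowest 0, median 8.50, highest 22.6). Its log2 fold change of 4.42 ± 0.25 (adjusted p = 6.47e-23) was the largest positive of the tested genes. The level was uneven over DE populations, at 1832 CPM in DE-1 and 1201 CPM in DE-2 but 9.10 CPM in DE-9, and 9 of 16 lay above all DI populations. Dab1, the intracellular adaptor of reelin signalling, was higher by less (0.54 ± 0.12), and was not called without the cx mice (0.43) or without DE-11 (0.30). Erbb4, a neuregulin receptor, stood at 1499 ± 227 CPM in DE (lowest 1132, median 1514, highest 1852) and 273 ± 58.7 CPM in DI (lowest 157, median 278, highest 349), a log2 fold change of 2.43 ± 0.11 (adjusted p = 3.21e-27). It reached 6441 CPM in DE-7 and 4573 CPM in DE-8. The neuregulin gene Nrg1 was lower in DE (2281 ± 547 CPM in DE and 3075 ± 411 CPM in DI, -0.49 ± 0.11, and -0.39 with no call without DI-4). The GDNF receptor gene Gfra1 (80.1 ± 18.1 CPM in DE and 15.3 ± 14.1 CPM in DI, 2.35 ± 0.30, and 2.95 in the cx mice alone) and the neurotrophin-3 receptor gene Ntrk3 (629.7 ± 81.1 CPM in DE and 300.1 ± 52.0 CPM in DI, 1.04 ± 0.12) were higher. In all, 6 of 14 tested trophic genes were higher (42.9%) and 1 lower (7.14%), against 8.68% and 7.47% of all tested genes. Bdnf, below the filter, had 33 DE UMIs and 1 DI UMI (26.1-fold, 4.37 to 1062).

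Adhesion genes were called in both directions. Of 47 tested synaptic adhesion and organiser genes, 14 were higher (29.8%) and 10 lower (21.3%) in DE, against 8.68% and 7.47% of all tested genes, with a median log2 fold change of 0.14. Ntng1, which encodes netrin-G1, a presynaptic adhesion protein, stood at 504 ± 137 CPM in DE and 76.9 ± 32.8 CPM in DI (2.74 ± 0.16, adjusted p = 6.47e-23). The related immunoglobulin genes Dscam and Dscaml1 had opposite signs. Dscam stood at 1417 ± 157 CPM in DE (lowest 1225, median 1453, highest 1672) and 429.6 ± 155 CPM in DI (lowest 238, median 399, highest 801), a log2 fold change of 1.78 ± 0.11. Dscaml1 stood at 109 ± 37.5 CPM in DE (lowest 41.5, median 109, highest 178) and 808 ± 104 CPM in DI (lowest 645, median 841, highest 922), a log2 fold change of -2.88 ± 0.13 (adjusted p = 1.80e-27), and -3.49 without DE-15. Neither gene overlapped between families. Nrxn3, a neurexin, stood at 1622 ± 225 CPM in DE (lowest 1371, median 1588, highest 2068) and 6789.9 ± 669 CPM in DI (lowest 5641, median 6575, highest 7791). Its log2 fold change was -2.06 ± 0.09 (adjusted p = 1.52e-29), and all 9 DI populations lay above all DE populations. Among contactin-associated genes Cntnap4 was lower (91.1 ± 30.4 CPM in DE and 344 ± 101 CPM in DI, -2.01 ± 0.16), while Cntnap5c (1.90 ± 0.19, and 2.56 without DI-4) and Cntnap5b (0.75 ± 0.11) were higher. Ptprd, a receptor phosphatase that organises synapses, stood at 4939.8 ± 541 CPM in DE and 2229.7 ± 370 CPM in DI (1.14 ± 0.09). Tenm2 and Mdga2 were lower by less (-0.44 and -0.34), and neither was called in the cx mice alone (-0.36 and -0.29). The call of Mdga2 was also lost without DI-3, and that of Tenm2 without DI-7, DI-8 or DI-9.

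Of 18 cadherins tested 6 were higher (33.3%) and 4 lower (22.2%) in DE, against 8.68% and 7.47% of all tested genes (median 0.02). Fat4 (1.43), Cdh10 (1.05), Cdh22 (0.84), Pcdh15 (0.84) and Cdh13 (0.83) were higher, and Cdh6 (-1.06), Fat3 (-0.56) and Pcdh11x (-0.53) were lower. In the cx mice alone Fat3 (-0.47) and Pcdh11x (-0.34) were not called. Pcdh11x was not called without DI-8 (-0.26) or DI-9 (-0.37), nor Cdh6 without DI-3 (-0.58). The fourth lower gene, Cdh12 (-0.53 ± 0.17, adjusted p = 0.0326), lost its call when any of 6 mice was left out and turned to 0.075 without DI-8 and 0.22 in the cx mice alone. The Cdh12 call was also lost under DESeq2, without DI-9 (-0.07) and without several single DE populations. Of 24 tested guidance genes 7 were higher (29.2%) and 3 lower (12.5%, median 0.27). The netrin receptors Dcc (1572 ± 370.5 CPM in DE and 730.4 ± 183 CPM in DI, 1.11 ± 0.12) and Unc5d (1.46 ± 0.19) were higher, as were Slit2 (0.97 ± 0.18), Plxna2 (0.88 ± 0.13) and Epha6 (0.76 ± 0.11). Lower were Epha10 (-0.76 ± 0.14), the Slit receptor gene Robo1 (-0.69 ± 0.13) and Slit3 (-0.77 ± 0.23). The Slit3 call was lost without replicate 2 or 7, without the cx mice (-0.79), in them alone (-0.73) and without DI-4 (-0.56). Robo1 was not called in the cx mice alone (-0.52) or without DI-8 (-0.37).

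Release machinery was split, with 7 of 31 tested genes higher (22.6%) and 8 lower (25.8%) in DE, against 8.68% and 7.47% of all tested genes (median -0.12). Synpr, a synaptic vesicle membrane protein, stood at 195 ± 61.7 CPM in DE (lowest 136, median 178, highest 313) and 56.1 ± 15.5 CPM in DI (lowest 31.1, median 52.2, highest 79.2), a log2 fold change of 1.72 ± 0.19 (adjusted p = 4.90e-11). Syt16 (1.56 ± 0.16) and the active-zone gene Erc2 (0.76 ± 0.11) were also higher. Cplx2, a complexin, which regulates vesicle fusion, stood at 58.8 ± 13.5 CPM in DE (lowest 33.2, median 62.2, highest 73.4) and 179 ± 42.4 CPM in DI (lowest 93.8, median 174, highest 230.4), a log2 fold change of -1.66 ± 0.18 (adjusted p = 2.43e-11). The vesicle protein gene Sv2c (-1.23 ± 0.14), the priming factor gene Unc13c (-0.95 ± 0.12) and the dense-core release gene Cadps2 (-1.38 ± 0.26, and -0.87 with no call without DI-7) were lower. Calcium-binding and kinase genes were even, with 6 of 25 higher and 6 lower (24.0% each, median -0.04). The cyclic-AMP phosphodiesterases Pde4b (1796 ± 169 CPM in DE and 798 ± 168 CPM in DI, 1.19 ± 0.10) and Pde4d (1.11 ± 0.10) were higher. Pde1c (0.92 ± 0.23) stood at 0.27 and was not called without DE-11, and was not called without the cx mice (0.64). Phospholipase gene Plcb1 (757 ± 169 CPM in DE and 1587 ± 173 CPM in DI, -1.12 ± 0.10), the ryanodine receptor genes Ryr3 (-0.82) and Ryr2 (-0.48) and the cGMP-dependent kinase gene Prkg1 (-0.60) were lower. Below the filter, Calb1, for calbindin, was higher (93.9 ± 52.2 CPM in DE and 7.39 ± 11.1 CPM in DI), and Nos1, for neuronal nitric oxide synthase, lower (19.7 ± 19.2 CPM in DE and 76.9 ± 45.8 CPM in DI).

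The genes with the largest fold changes also include members of no list. Meis1, a TALE homeodomain factor, stood at 271 ± 67.1 CPM in DE and 21.5 ± 8.03 CPM in DI (3.63 ± 0.22, adjusted p = 3.37e-22). As for Lmx1b, all 16 DE populations lay above all DI populations. The margins were narrow, with Meis1 at 56.3 CPM in DE-11 and 44.6 CPM in DI-4. Lmx1b stood at 58.9 CPM in DE-3, which held 33939 UMIs of all genes, and at 51.5 CPM in DI-3. The copine genes Cpne4 (225 ± 104 CPM in DE and 23.9 ± 14.9 CPM in DI, 3.16 ± 0.23) and Cpne8 (2.78 ± 0.24), whose products bind membranes in a calcium-dependent way, were higher. So were Vwc2l (3.08 ± 0.25) and Nell1 (2.63 ± 0.19, and 2.02 in the cx mice alone), which encode secreted proteins with von Willebrand C domains, and the sulfotransferase gene Chst9 (2.47 ± 0.25). Cpne4 rested on few populations, with 2552 CPM in DE-7 and 0 in DE-4. Lower were the glypican gene Gpc5 (504 ± 229 CPM in DE and 1959.6 ± 715 CPM in DI, -2.01 ± 0.22), the redox regulator gene Nxn (-2.50 ± 0.31) and the zinc-finger gene Zmat4 (-1.97 ± 0.13). None of 6 tested mitochondrially encoded genes was called by edgeR or DESeq2 or had an unadjusted p under 0.05, and none of 23 rapid activity genes, such as immediate early genes, reached the level needed for a test. Among markers of other cells, 1 oligodendrocyte marker, Aspa, was higher in DE (75.2 CPM in DE and 45.4 CPM in DI, 0.64, adjusted p = 0.0492) and 1 pan-neuronal gene, Syt1, was lower (2211 CPM in DE and 2670 CPM in DI, -0.28), both named after their values were seen.

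**Figure D4:**
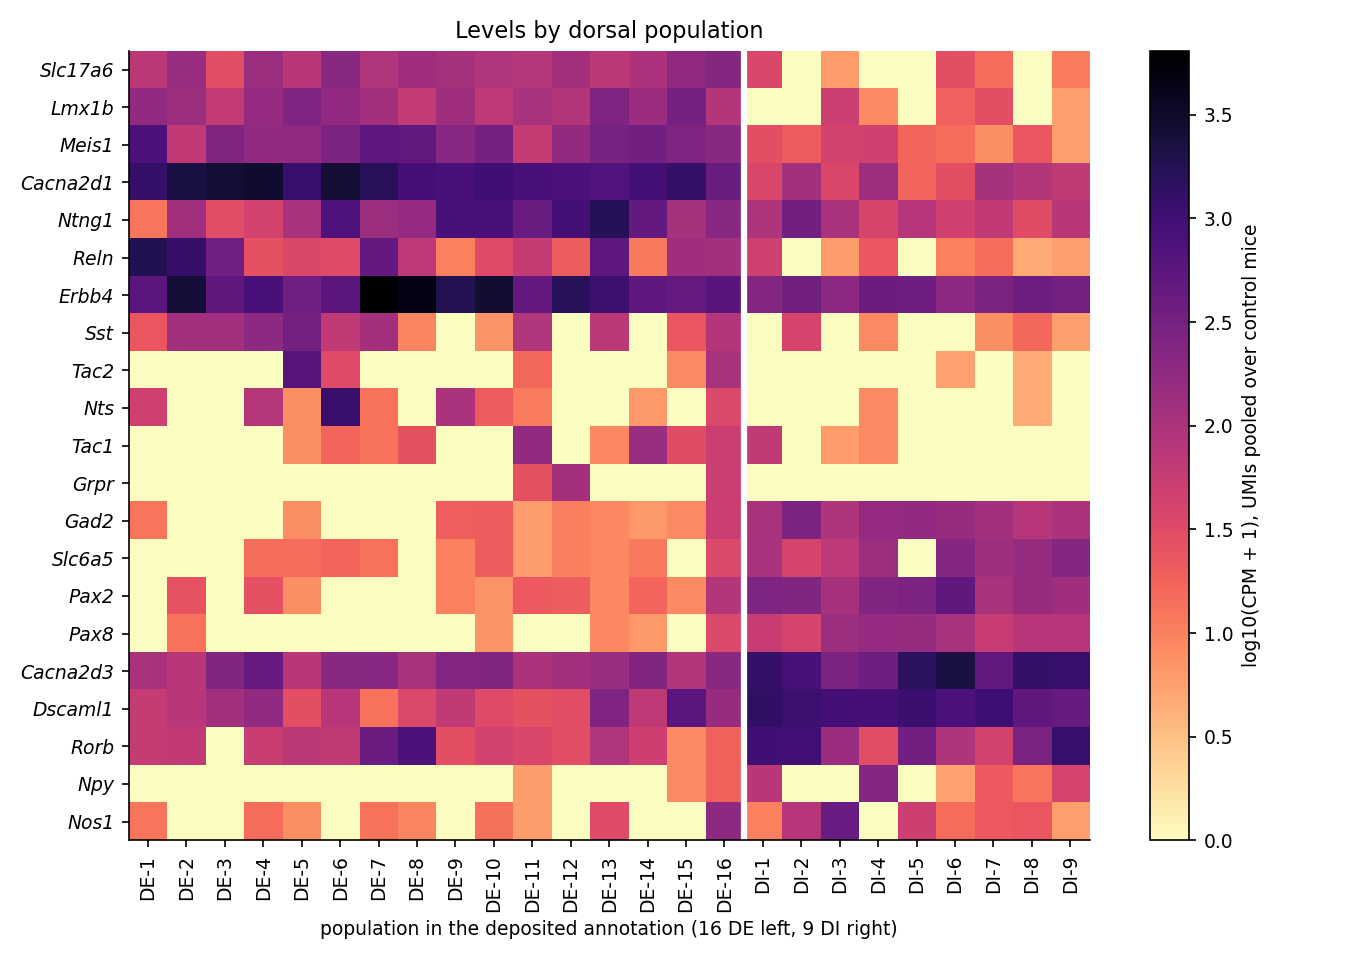
Level of 21 genes in each of the 16 DE (left) and 9 DI (right) populations, as log10 of CPM plus 1 from UMIs pooled over control mice. Cacna2d1, Lmx1b and Meis1 are higher in every DE population than in any DI population, by a narrow margin for Lmx1b and Meis1. Peptides such as Nts (1140 CPM in DE-6) stand out in few populations.

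The populations did not all sit squarely in their family. DE-16, with 31 nuclei and 58878 UMIs, had the highest Slc17a6 level of the DE populations (221 CPM, 13 UMIs) and the lowest Cacna2d1 level (408 CPM). It also had the highest levels among DE populations of Pax2 (84.9 CPM, 5 UMIs, against at most 26.7 in the others), Gad2 (51.0 CPM, 3 UMIs, against at most 18.8) and Nos1 (187 CPM, 11 UMIs, against at most 31.1). These counts are small, and the Pax2 and Gad2 levels lay below those of all 9 DI populations, as did Pax8 (34.0 CPM, 2 UMIs). Other inhibitory genes in DE-16 did not lie below all DI populations. Gad1 (34.0 CPM, 2 UMIs) lay above DI-3, DI-5, DI-8 and DI-9, the lowest being DI-5 at 15.8 CPM. Slc6a5 (34.0 CPM, 2 UMIs) lay above DI-5, and Lhx1 (34.0 CPM) above DI-2, DI-3 and DI-6, all at 0. Leaving out DE-16 ended the call of Scn3a, while 111 other named genes kept their direction and call and 3 were not tested. Nos1 in DI was led by DI-3 at 417 CPM. Slc6a5 was at 0 in DI-5, while the other 8 DI populations lay above all DE populations. For DI-2 the margin was narrow and rested on few UMIs, at 38.8 CPM of 51550 UMIs against 34.0 CPM (2 UMIs) in DE-16. Population levels pool mice and carry no test.

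The same comparison was made in the other mice, which carry the same population names. The names come from the same deposited annotation, so agreement of genes that define the populations is not independent of how the nuclei were grouped. In 10 formalin mice 302 of 1753 tested genes were called (17.2%), 163 higher (9.3%) and 139 lower (7.93%) in DE. Of the 469 genes called in control mice 356 were tested there, 350 had the same sign, 249 were called the same way and 0 were called the opposite way (edgeR, adjusted p under 0.05). In 5 rotarod mice 285 of 1858 tested genes were called (15.3%), 156 higher (8.4%) and 129 lower (6.94%). There 381 of the control calls were tested, 373 had the same sign, 241 were called the same way and 0 the opposite way. Of the 6 and 8 genes with the opposite sign none had an unadjusted p under 0.05. A total of 348 control calls were tested in both, and 192 were called the same way in all 3 groups. Of the genes with the largest fold changes, some were close in size and others less so. Cacna2d1 stood at 3.95 in formalin mice and 4.52 in rotarod mice, against 4.18 in control mice, and Cacna2d3 at -2.86 and -2.88 against -2.73. Erbb4 stood at 2.78 in formalin and 2.71 in rotarod mice, against 2.43 in control mice, and Nrxn3 at -1.95 and -2.23 against -2.06. Cpne4 stood at 3.12 in formalin and 4.48 in rotarod mice, against 3.16 in control mice. Vwc2l stood at 2.41 in formalin mice against 3.08 in control mice, and Ntng1 at 3.27 against 2.74. In rotarod mice Chst9 stood at 3.15 against 2.47 in control mice, and Ebf2 at 2.52 against 3.07. Pax2 reached the filter in rotarod mice alone of the 2, at -4.49. Some smaller differences did not recur. Scn3a, at 0.39 in control mice, was at -0.03 in formalin mice (adjusted p = 0.949), and Slit3, at -0.77 in control mice, was at 0.16 in rotarod mice (adjusted p = 0.864). Gabrg3, at 0.72 in control mice, was at 0.17 in formalin mice and 0.50 in rotarod mice and was called in neither. Differences between the groups of mice were not tested.

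**Figure D5:**
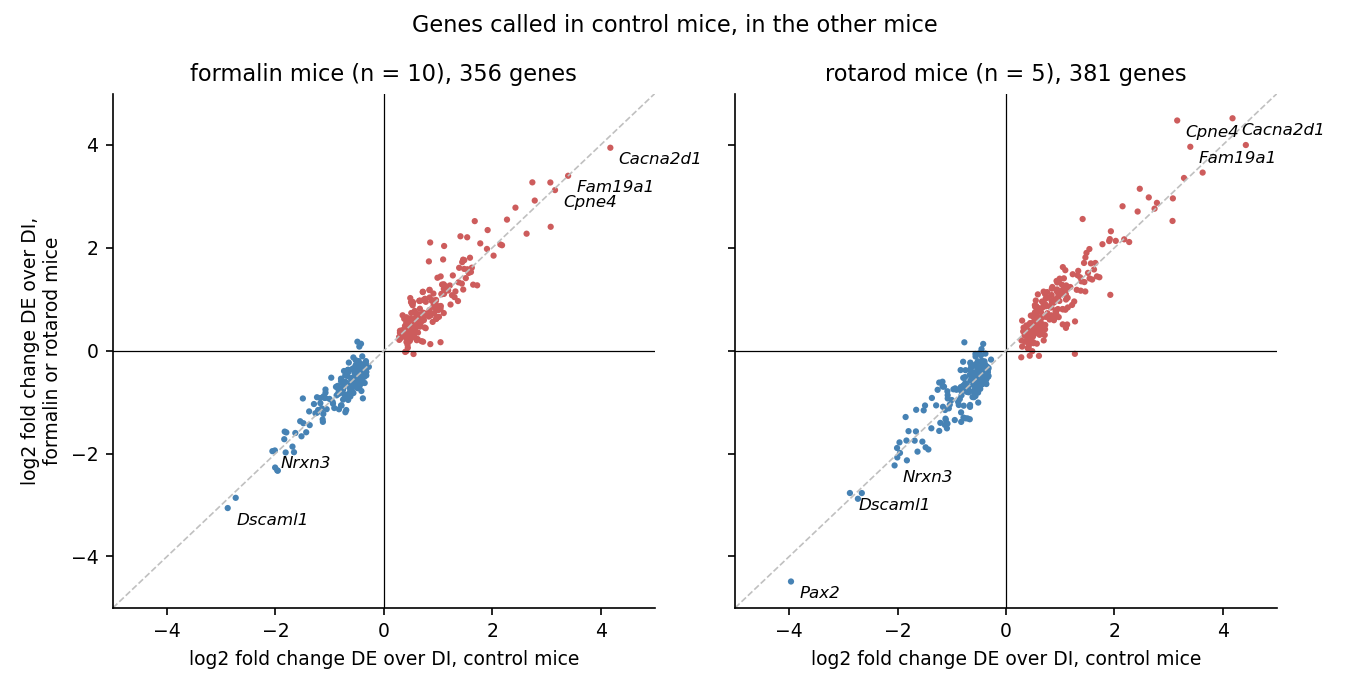
Log2 fold change of DE over DI for the genes called in control mice (horizontal) against the value in 10 formalin mice (left, 356 genes) and 5 rotarod mice (right, 381 genes). The dashed line marks equal values, and the points off the 2 matching quadrants, 6 in formalin and 8 in rotarod mice, lie near 0 on the vertical axis.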

How the data were processed

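The deposited matrix holds raw counts of UMIs (32962 genes, 18000 barcodes, 750 per sample), and a second deposited table gives the authors' class and population of each barcode. The submitters' processing notes name the builds mm10 and GRCm38. The aligner, annotation, strand and use of intron reads are unstated in the sources used here, so overlapping genes may share counts. So are the authors' filters and any doublet removal, and no doublet caller was run. The label DE12 was read as DE-12 (33 nuclei).

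Counts were summed per mouse and family and tested with edgeR 4.0.16 in R 4.3.3 (quasi-likelihood, TMM, robust, filterByExpr by family, at least 5 nuclei), with the mouse as a block because both sums come from the same animal, and Benjamini-Hochberg adjustment at 0.05. SE is the log2 fold change over the root of F. DESeq2 1.42.0 was an alternative. Counts were also simulated with a fixed negative binomial dispersion of 0.05 for every gene, which was not estimated from these data. On them (2869 genes tested, 50 changed at each size) the fit recovered 27.7% of genes changed by 0.5 (log2), 97.6% at 1 and 100% at 1.5 and 2. Changed genes that failed the filter were not counted in these shares. Of the unchanged genes tested, 0.37% were called, and the rates hold for that setting only. Python 3.11.15, numpy 2.4.6, scipy 1.17.1, pandas 2.3.3 and matplotlib 3.10.9 were used. Positions are from GENCODE M21 (GRCm38). Floors of 3 counts and intervals cover counting error only.

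The members, the 21 gene lists and 11 marker lists were chosen with earlier results of these data known. Genes were named by rule: the 12 largest fold changes in each direction at 20 CPM or more in the higher family, up to 5 called genes per list and direction, and Slc17a6, Slc32a1, Gad1, Gad2, Slc6a5, Lmx1b and Pax2. Some genes that the rule names are not reported here. The labels call the samples separate mice, so p-values measure the spread between these mice.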

Additional observations from a re-analysis of the deposited data

Results flagged for a closer look

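Among 116 quantities checked over the 9 control mice, 7 had a mouse far from the other 8 in its log2 ratio of DE over DI (0.5 UMIs added to each count). Chance alone flags about 1 in 20 such groups. For Cacna2d1 replicate 4 stood at 7.06, against 3.62 to 4.71 in the other mice, with 53 DE and 0 DI UMIs. For Nell1 replicate 3 stood at 5.75, against 1.81 to 3.74, with 30 DE and 0 DI UMIs. For Slit3 replicate 4 stood at -4.32, against -1.18 to -0.07, with 0 DE and 12 DI UMIs. For Abat replicate 4 stood at -2.78, against -1.28 to 0.07, with 2 DE and 21 DI UMIs. For Gabra5 replicate 9 was the only mouse below 0, at -0.60, against 0.73 to 1.93. For Slit2 replicate 9 stood at 2.82, against 0.33 to 1.46, with 37 DE and 4 DI UMIs. For Synpr replicate 2 stood at 3.20, against 0.96 to 2.04, with 69 DE and 5 DI UMIs.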

How the results depend on the processing

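Against 469 genes called, DESeq2 size factors gave 473 and DESeq2 381, the fit without the filter 638, the fit with no replicate block 372, and a minimum of 20 nuclei 488. Leaving out single mice gave 390 to 488 and single populations 386 (DI-8) to 523 (DE-14). The 6 mice without the cx suffix gave 313 and the 3 with it 391. Thinning each nucleus to 500 UMIs left 407 genes to test and 134 calls, fewer by construction. No control call turned sign under the other tool, the scalings or the fit without the block. Removing the block ended the calls of Rora, Nfib, Fam19a2, Kcnh5, Scn3a and Syn3. Of 115 named genes that were tested, 80 kept direction and call under every alternative that tested them. Among these named genes signs turned 3 times. Cdh12 stood at 0.22 in the cx mice alone and at 0.075 without DI-8, and Nfib at 0.0073 without DI-3. Among all control calls at most 2 had the opposite sign in any alternative, which was the count in the cx mice alone and without DI-3. Cacna2d1 fell to 3.34 after thinning. The cause was not tested. The median UMI ratio was -0.30 without the cx mice (exact permutation p = 0.0625) and -0.19 to -0.27 without single mice. In formalin mice single omissions gave 257 to 308 calls, and merging samples 1 to 5 with 6 to 10 gave 386. In rotarod mice they gave 169 (without replicate 5) to 334, with 186 without replicate 4. The rotarod, formalin, merged-pair and cx-only alternatives were chosen after seeing the data. Slc17a6, Gad1, Slc32a1 and most peptides are limited by depth.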
